A study of Mus musculus with 20 samples.

Results

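The T cell receptor V genes are the 144 rows of the spleen count table whose biotype is TR_V_gene, out of 54532 genes in the table. They comprise 110 genes at the alpha locus (TRA), 22 at the beta locus (TRB), 7 at the gamma locus (TRG) and 5 delta genes (TRD) that lie within or beside the alpha locus. Of these, 142 carry a Trav, Trbv, Trdv, Trgv or Tcrg-V name, and the other 2, C920008G01Rik and B230359F08Rik, lie among the TRA genes. Total RNA of whole spleen was sequenced in 20 libraries from mice aged 4 weeks, either bred on a gluten-free diet or control. The 9 gluten-free libraries comprised 4 with a plain-number ID (7 to 10) and 5 with an S before the number (S1, S3, S5, S6 and S8), and the 11 control libraries comprised 8 with a plain ID (1 to 8) and 3 with an S ID (S1, S2 and S6). What the S marks, and the strain, sex and litters of the mice, are not given in the sources used here, so the diets were compared within each ID form, and p-values measure the spread between these samples.

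A T cell receptor is built in each developing T cell by joining 1 V gene to a J gene, with a D gene between them in the beta and delta chains, and the joined exon is spliced to a constant (C) gene. The V gene encodes most of the variable domain, which contacts the antigen, and its 3′ end forms the start of the third complementarity-determining loop, beginning at a conserved cysteine. Most spleen T cells carry an alpha-beta receptor, and a minority carry a gamma-delta receptor. Because each mature T cell transcribes the V genes that it has joined, V gene counts in whole spleen sum over the T cells of the tissue, and in such bulk RNA fewer T cells and less RNA per T cell cannot be told apart.

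Levels are given as CPM, counts relative to the library total after TMM scaling, a correction for library composition. The libraries held 13626021 to 24268237 counts in all, of which 318 to 1872 per library fell on the 144 V genes. The V genes together had 16541 counts. TRB genes took 69.5% of them, TRA 24.7%, TRG 3.99% and TRD 1.81%. Dual alpha-delta genes, with a Trav name that also holds dv, are counted here as TRA. Among them are Trav14d-3-dv8 (105 counts) and Trav21-dv12 (68 counts). TRD thus covers the Trdv genes alone, and its share is not the whole of delta chain usage. The TRB share of V counts varied little between libraries and lay between 66.8% and 73.2% in all 20. The TRA share ranged from 18.8% to 28%. The smaller shares varied more in proportion, TRG from 1.67% to 9.71% and TRD from 0.687% to 5.14%. At such totals a V gene had few counts in each library, 23 of the 144 were counted in every library, and 26 passed the expression filter (16 TRB, 7 TRA, 2 TRG and 1 TRD). Another 20 had no count in any library, which allows a level of up to 0.00824 CPM over the 20 libraries pooled, an upper limit that covers counting error only. The 118 genes that did not pass had at most 125 counts over the 20 libraries and entered no test.

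TRB supplied most of the measured V RNA, and 1 gene led it throughout. Trbv13-2, of a family used by many conventional T cells and by invariant NKT cells, had the highest level per length of all TRB genes in 20 of 20 libraries, with a mean of 15.4 ± 5.78 CPM per kilobase of gene length (SD, n = 20). Next came Trbv16 at 8.43 ± 3.93, Trbv13-1 at 6.4 ± 2.95 and Trbv1, the most upstream member, at 6.27 ± 2.55 CPM per kilobase. The last bases of their coding sequence on GRCm38 (GENCODE M21 annotation, the strand of transcription), printed to show where the shared framework ends and the gene's own contribution to the third loop begins, have the codon of the conserved cysteine in capitals:
Trbv13-2: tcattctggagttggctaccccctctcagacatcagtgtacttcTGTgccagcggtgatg
Trbv13-1: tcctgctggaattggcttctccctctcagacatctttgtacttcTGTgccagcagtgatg
Trbv13-3: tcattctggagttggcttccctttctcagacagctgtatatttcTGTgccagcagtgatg
Trbv16: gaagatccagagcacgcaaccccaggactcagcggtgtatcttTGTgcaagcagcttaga
Trbv1: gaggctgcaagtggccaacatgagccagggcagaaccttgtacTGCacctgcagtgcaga
Trbv31: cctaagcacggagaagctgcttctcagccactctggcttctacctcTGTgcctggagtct

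These stretches lie at chr6:41121773-41121832 for Trbv13-2, chr6:41116409-41116468 for Trbv13-1, chr6:41130526-41130585 for Trbv13-3, chr6:41152171-41152230 for Trbv16, chr6:40891826-40891885 for Trbv1 and, on the minus strand, chr6:41557693-41557752 for Trbv31. All are exonic, in the second coding exon. The coding sequences of Trbv13-2 and Trbv13-3 are 90.6% identical. For both, as for Trbv13-1, every stretch of 100 bases occurs in no other annotated gene, so that a read of that length would tell them apart.

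The order of the TRB genes below the first was less firm. Trbv16 stood above Trbv13-1 in 15 of 20 libraries, and Trbv13-1 above Trbv1 in 11 of 20, so the third and the fourth place do not differ beyond their spread. The next 9 genes, Trbv12-2, Trbv13-3, Trbv15, Trbv20, Trbv29, Trbv14, Trbv19, Trbv3 and Trbv2, had means of 4.6 to 3.05 CPM per kilobase, and within them each gene exceeded the next in 9 to 13 of 20 libraries. Trbv17, Trbv31, which lies downstream of the beta constant genes in inverted orientation, and Trbv12-1 followed at 2.42, 2.41 and 1.73 CPM per kilobase. A gap then separated these 16 genes from the other 6. Trbv12-1 exceeded Trbv26, at 0.602 CPM per kilobase, in 19 of 20 libraries, and Trbv30, Trbv5, Trbv23 and Trbv4 lay between 0.224 and 0.0401, while Trbv21 had no count. Of the 100-base stretches of Trbv5 and Trbv4, only 18.6% and 19.2% occur in no other annotated gene. Reads from the shared stretches may be lost in counting, so the low levels of these 2 genes are uncertain.

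**Figure D1:**
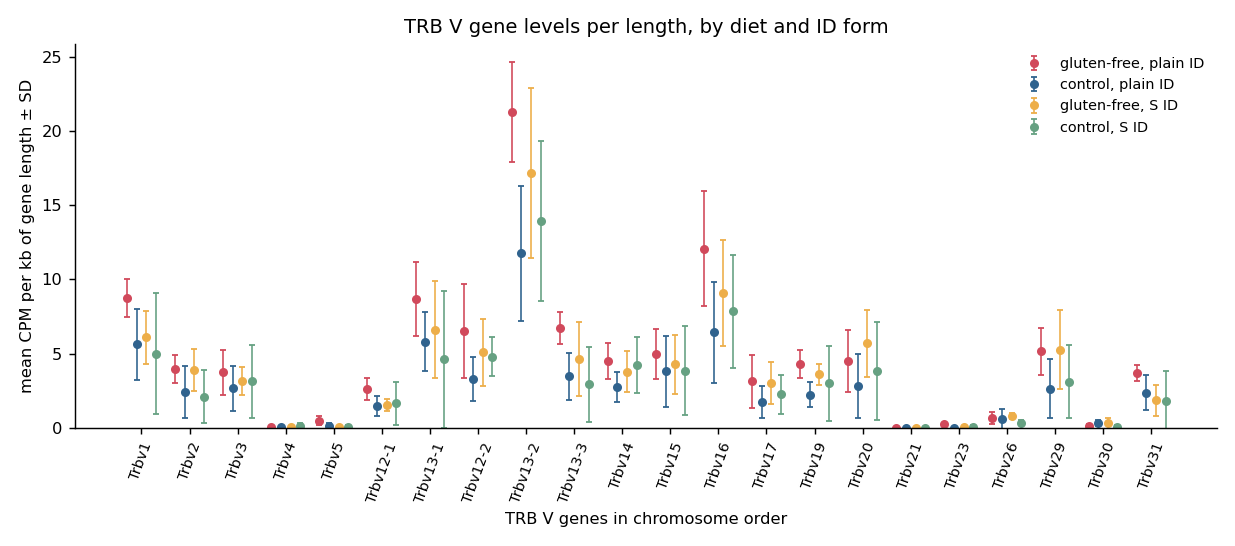
Mean level of the 22 TRB V genes, in CPM per kilobase of gene length, in chromosome order from left to right; points are group means and bars are the SD over libraries (gluten-free plain n = 4, control plain n = 8, gluten-free S n = 5, control S n = 3), cut off at 0 where they would fall below it. Trbv13-2 is the highest gene in each of the 4 groups, and Trbv21 lies at 0 in all of them.

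TRA counts were spread over many more genes, and how unique a gene's sequence is differed widely among them. Per length, Trav14-1, Trav5-4, Trav13-2 and Trav3-3 had the highest mean levels, 1.69, 1.55, 1.54 and 1.53 CPM per kilobase, and 7 TRA genes passed the filter. Many TRA genes exist as near-copies from a duplicated stretch of the locus, named with a d or an n. The 46 genes with no such letter held 59.8% of TRA counts (median 38.0 counts a gene over the 20 libraries), the 34 d copies 23.9% (median 5.5) and the 28 n copies 13.7% (median 7.5). In the annotated coding sequences the median share of 100-base stretches found in no other gene was 92.0% for genes with no letter, 0% for d copies and 0% for n copies. Of the 39 TRA genes with no unique stretch, 11 had no count and 1 passed the filter, whereas of the 20 wholly unique TRA genes 1 had no count and 3 passed. Reads from near-copies may be shared or dropped in counting, and how the authors treated them is not given in the sources used here, so the level of a single copy is uncertain.

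**Figure D2:**
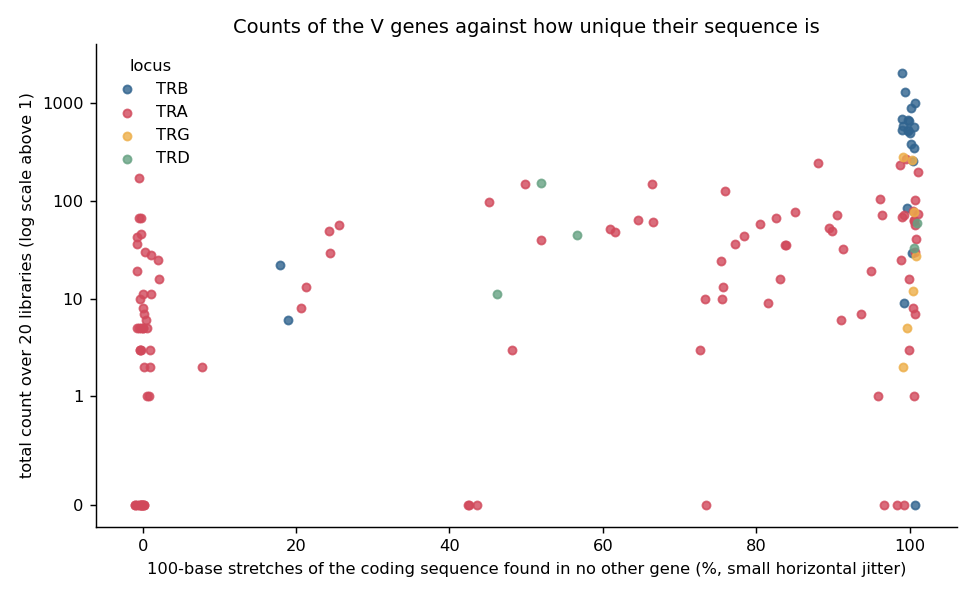
Total count of each of the 144 V genes over the 20 libraries (vertical axis, logarithmic above 1, with 0 shown at the bottom) against the percent of 100-base stretches of its coding sequence that occur in no other annotated gene (horizontal axis, jittered); each point is 1 gene, coloured by locus. The 39 genes at 0% are all TRA genes with at most 172 counts, and 20 of the 22 TRB genes lie at 100%.

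Among V genes of innate-like T cells, Trav11d, one of a pair of alpha genes used by invariant NKT cells, had 43 counts over the 20 libraries, and Trav11, which differs from it by 1 base of length, had 5. Their sum averaged 0.157 ± 0.144 CPM in gluten-free plain and 0.142 ± 0.175 CPM in control plain libraries, and 0.110 ± 0.112 CPM in gluten-free S and 0.103 ± 0.0942 CPM in control S libraries (SD, n = 4, 8, 5 and 3). The ranges of the diets overlapped in both ID forms. Trav1, the alpha gene of mucosal-associated invariant T cells, had 8 counts in 4 of the 9 gluten-free libraries and none in the 11 control libraries, where no count allows a level of up to 0.0172 CPM over the pooled libraries. It did not pass the filter and was not tested.

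Within the plain IDs the V genes were mostly higher on the gluten-free diet. Of the 26 genes tested, 8 rose and none fell (edgeR quasi-likelihood test, Benjamini-Hochberg adjusted p under 0.05 over 17600 genes), and 25 of 26 had a log2 fold change above 0. The median log2 difference of the 26 was 0.77, against 0.03 for all genes tested. Over all genes 18.5% rose and 22.9% fell in this comparison, 41.4% in either direction. The 8 comprise 5 of 16 TRB, 2 of 7 TRA and 1 of 2 TRG genes, and all 16 TRB genes had a positive estimate, from 0.36 to 0.96. Without gluten-free 7 the count was 2 (Trav9d-1 and Trbv13-2), against 34.4% of all genes in either direction. Without gluten-free 10 it was 5, against 35% of all genes, and without control 8 it was 14, against 49.3%. Gluten-free 7 and control 8 were the libraries with the most V RNA in their groups.

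Trbv13-2, the leading beta gene (chr6:41121396-41121832), had 8.70, 6.14, 7.54 and 6.57 CPM in gluten-free 7, 8, 9 and 10. In the 8 plain control libraries it had a lowest value of 2.37, a median of 3.74 and a highest of 7.35 CPM. The groups overlapped, because control 8 lay above 2 of the gluten-free libraries. Its log2 fold change was 0.83 ± 0.23 (SE, edgeR adjusted p = 0.00996), the smallest adjusted p of any V gene.

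Trbv16 (chr6:41151740-41152230) had 7.06, 3.61, 4.17 and 4.36 CPM in gluten-free 7 to 10, against 1.34, 2.04 and 5.67 CPM as lowest, median and highest of the control libraries, with a log2 difference of 0.89 ± 0.31 (SE, edgeR adjusted p = 0.0308). Trbv19 (chr6:41178375-41179048) had 3.20, 2.13, 1.99 and 2.42 CPM in gluten-free libraries, against 0.745, 1.27 and 2.09 CPM as lowest, median and highest in control, and a log2 difference of 0.92 ± 0.28 (SE, edgeR adjusted p = 0.0157). In both genes the groups overlapped through control 8 alone. Trbv13-3 (chr6:41130147-41130585) had 2.77, 1.87, 2.18 and 2.31 CPM in gluten-free libraries and 0.542, 1.12 and 2.03 CPM as lowest, median and highest in control, and rose by 0.95 ± 0.31 log2 units (SE, edgeR adjusted p = 0.0240). Trbv12-2 (chr6:41118851-41119364) had 4.25, 1.39, 2.22 and 2.15 CPM in gluten-free libraries and 0.692, 1.14 and 2.57 CPM in control, and rose by 0.96 ± 0.34 log2 units (SE, edgeR adjusted p = 0.0305). In Trbv13-3 control 5 and control 8 lay above gluten-free 8, and in Trbv12-2 gluten-free 7 stood far above the other 3 of its group.

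The other 2 TRB genes given here by their role or level did not pass the test. Trbv1 had a log2 difference of 0.61 ± 0.26 (SE, edgeR adjusted p = 0.0733), with group means of 3.64 ± 0.529 CPM in gluten-free and 2.35 ± 1.00 CPM in control libraries (SD, n = 4 and 8). The inverted gene Trbv31 had 0.63 ± 0.34 (SE, edgeR adjusted p = 0.139), with means of 1.54 ± 0.228 and 0.983 ± 0.496 CPM in gluten-free and control libraries.

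Of the TRA genes, Trav9d-1 (chr14:52792316-52792777) had the largest fold change of the tested V genes. Its values were 0.925, 0.566, 0.574 and 1.13 CPM in gluten-free 7 to 10, and 0, 0.181 and 0.553 CPM as lowest, median and highest in the control libraries, so the groups did not overlap. The log2 fold change was 1.78 ± 0.53 (SE, edgeR adjusted p = 0.0140). Trav9d-1 differs from Trav9-1 at 2 of 337 coding bases, shown in capitals in the 100-base stretch that holds both (second exon, GRCm38, plus strand), because within the coding sequence reads that cover neither base cannot be assigned to 1 of them:
Trav9d-1: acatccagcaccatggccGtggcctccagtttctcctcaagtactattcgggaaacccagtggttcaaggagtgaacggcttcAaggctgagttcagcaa
Trav9-1: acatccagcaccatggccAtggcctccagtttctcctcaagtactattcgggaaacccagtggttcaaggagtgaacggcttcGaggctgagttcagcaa

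The stretches lie at chr14:52792601-52792700 for Trav9d-1 and chr14:53488391-53488490 for Trav9-1. Summed, the pair had 1.06 ± 0.353 CPM in gluten-free plain and 0.365 ± 0.277 CPM in control plain libraries (SD, n = 4 and 8), and their ranges, 0.651 to 1.47 CPM in gluten-free and 0 to 0.777 CPM in control, overlapped. With counts summed by V family, the Trav9 family had a log2 difference of 1.25 (adjusted p = 0.0344 by edgeR).

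Trav3-3 (chr14:53665929-53666506) had 1.01, 0.783, 0.919 and 1.61 CPM in gluten-free 7 to 10, against 0.159, 0.468 and 0.838 CPM as lowest, median and highest in control. Its log2 fold change was 1.06 ± 0.37 (SE, edgeR adjusted p = 0.0291), and the groups overlapped through gluten-free 8. Trav14-1 and Trav13-2, the other leading TRA genes, had 0.86 ± 0.58 and 0.74 ± 0.52 (SE, edgeR adjusted p = 0.241 and 0.267). Their libraries spread widely within a group: Trav14-1 lay between 0.484 and 1.60 CPM in gluten-free and between 0.0692 and 1.55 CPM in control libraries. Trav6d-7, whose coding sequence differs from that of Trav6n-7 by 12 bases of length and which has no unique stretch, had 1.62 ± 0.70 (SE, edgeR adjusted p = 0.0730). Trav7-4 was the only tested V gene with a negative estimate, -0.82 ± 0.65 (SE, edgeR adjusted p = 0.321).

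**Figure D3:**
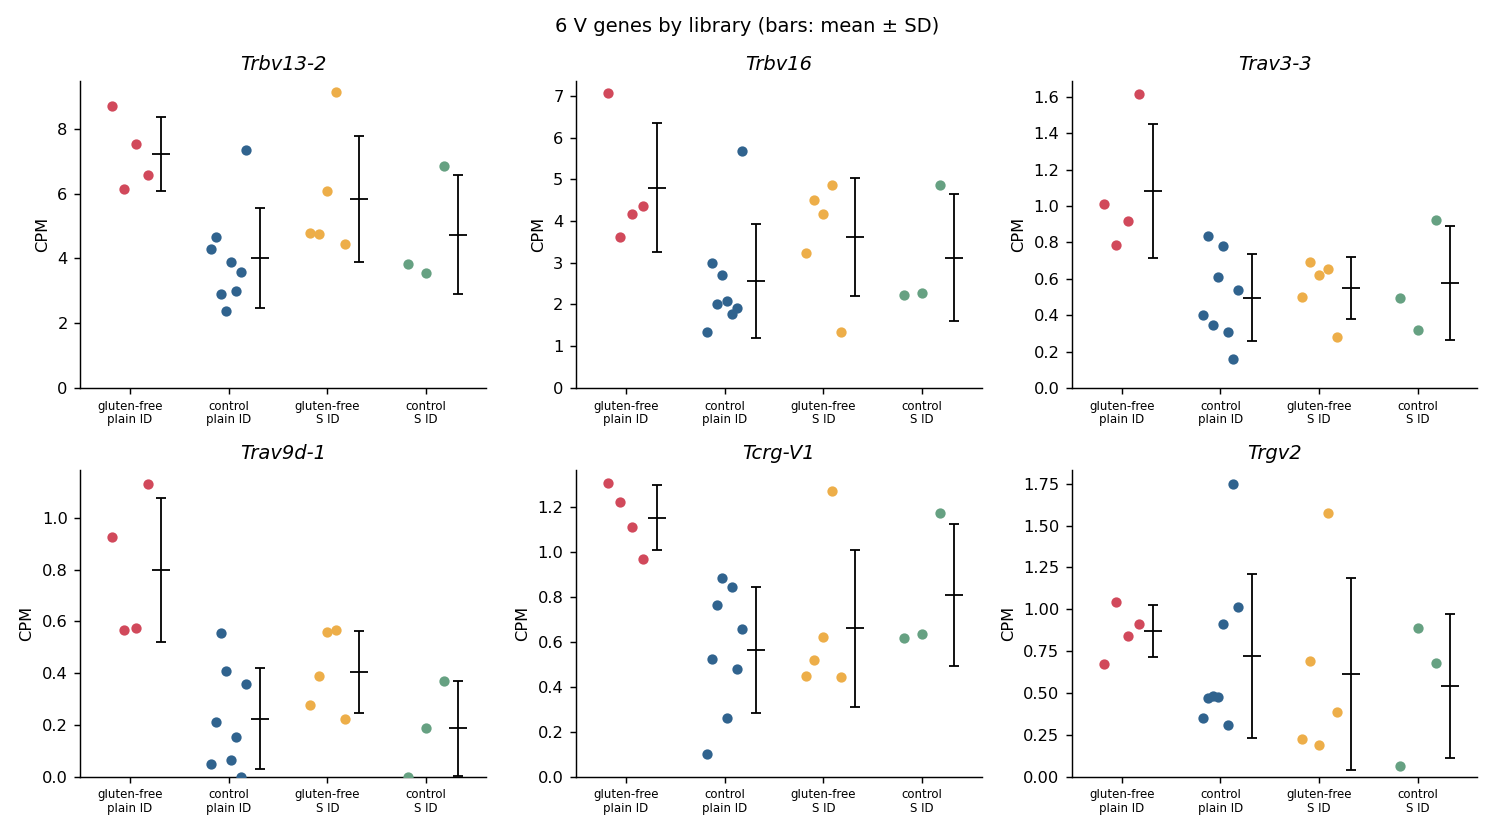
Level of 6 V genes in each library, in TMM-scaled CPM; each point is 1 library, the bars beside them are the mean ± SD, and groups run from gluten-free to control within each ID form. In Trav9d-1 and Tcrg-V1 all 4 gluten-free plain libraries lie above all 8 control plain libraries, while in the other 4 genes the groups overlap. Over the 144 V genes, 3 lay wholly above in this way and 0 wholly below. The third is Trbv23, with 9 counts over the 20 libraries, which was not tested. The share of all genes that separate in this way was not counted.

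Of the gamma genes, Tcrg-V1, which adult spleen gamma-delta T cells commonly use, rose and Trgv2 did not pass the test. Tcrg-V1 (chr13:19339989-19340454) had 1.30, 1.22, 1.11 and 0.969 CPM in gluten-free 7 to 10, against 0.0996, 0.590 and 0.881 CPM as lowest, median and highest in control, with no overlap. Its log2 fold change was 1.03 ± 0.39 (SE, edgeR adjusted p = 0.0424). The call is the least stable of the 8: it held in 12 of 24 other settings, and it was lost without any 1 of the 4 gluten-free libraries and without control 2, 5 or 7 (adjusted p = 0.0570 to 0.101 by edgeR), with an estimate above 0 in all 24. The 24 include a repeat of the fit without control 5. Trgv2 (chr13:19336573-19337167, minus strand) had 0.673, 1.04, 0.842 and 0.915 CPM in gluten-free libraries and 0.306, 0.479 and 1.75 CPM in control, with a log2 difference of 0.27 ± 0.42 (SE, edgeR adjusted p = 0.620). The 2 genes lie side by side in opposite orientation and are 94.9% identical over the coding sequence. Their last 90 coding bases are shown, with the 5 differing bases in capitals, because these are the differences that separate the counts of the leading gamma genes at the end joined to J:
Tcrg-V1: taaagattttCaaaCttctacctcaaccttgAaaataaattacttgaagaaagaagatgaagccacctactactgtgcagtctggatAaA
Trgv2: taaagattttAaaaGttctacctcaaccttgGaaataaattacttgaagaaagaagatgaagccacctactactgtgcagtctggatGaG

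These stretches lie at chr13:19340365-19340454 and, for Trgv2 on the minus strand, chr13:19336573-19336662. Of all 100-base stretches of Tcrg-V1, 98% occur in no other gene, and 100% of those of Trgv2. A read of 100 bases would therefore mostly be assigned to 1 of them.

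The other gamma and delta genes were too sparse to test except Trdv2-2. Tcrg-V4 had 40 counts in 9 of 9 gluten-free and 36 counts in 9 of 11 control libraries. Tcrg-V7, used in mice by gut intraepithelial cells, had 18 counts in 7 gluten-free and 9 counts in 3 control libraries, and Tcrg-V6, used by T cells that arise before birth and settle in skin and mucosa, had 2 counts in 2 and 10 counts in 5. Tcrg-V5, the gamma gene of epidermal T cells, had 5 counts, all in gluten-free 9, and none in the control libraries. Trdv4, the delta gene paired with Tcrg-V5 and Tcrg-V6, had 12 counts in 6 gluten-free and 21 counts in 8 control libraries, and the inverted gene Trdv5 had 18 counts in 7 and 27 counts in 9. Trdv1, the next in level, had 59 counts in all. Trdv2-2 averaged 0.546 ± 0.387 CPM in gluten-free plain and 0.414 ± 0.192 CPM in control plain libraries (SD, n = 4 and 8), with a log2 difference of 0.40 ± 0.47 (SE, edgeR adjusted p = 0.515). Its ranges overlapped, and the other genes of this group were not tested.

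Summed over a locus, V counts differed between the diets by ratios near those of the C counts for TRB, TRA and TRG, and less so for TRD. TRB V genes together had 41.1 ± 9.67 CPM in gluten-free plain and 24.1 ± 10.3 CPM in control plain libraries (SD, n = 4 and 8), a ratio of means of 1.70, and the beta constant genes had 259 ± 4.07 and 157 ± 24.8 CPM, a ratio of 1.65. For TRA the V sums were 15.4 ± 2.74 and 7.95 ± 3.92 CPM in gluten-free and control (ratio 1.93) and the Trac levels 30.5 ± 3.38 and 16.6 ± 6.09 CPM (ratio 1.83). For TRG the V sums were 2.43 ± 0.160 and 1.52 ± 0.562 CPM in gluten-free and control, a ratio of 1.59, and the C sums had a ratio of 1.60. TRD V sums, 0.932 ± 0.490 CPM in gluten-free and 0.755 ± 0.261 CPM in control, had a ratio of 1.23, and the C levels, 10.1 ± 0.510 and 7.20 ± 1.71 CPM in gluten-free and control, a ratio of 1.40. These TRD V sums leave out the dual genes counted as TRA. The TRB V sum was highest in gluten-free 7 (55.5 CPM) and control 8 (47.7 CPM), so that control 8 lay above the other 3 gluten-free libraries, at 34.4 to 37.8 CPM. The other 7 plain control libraries lay between 15.2 and 28.1 CPM.

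**Figure D4:**
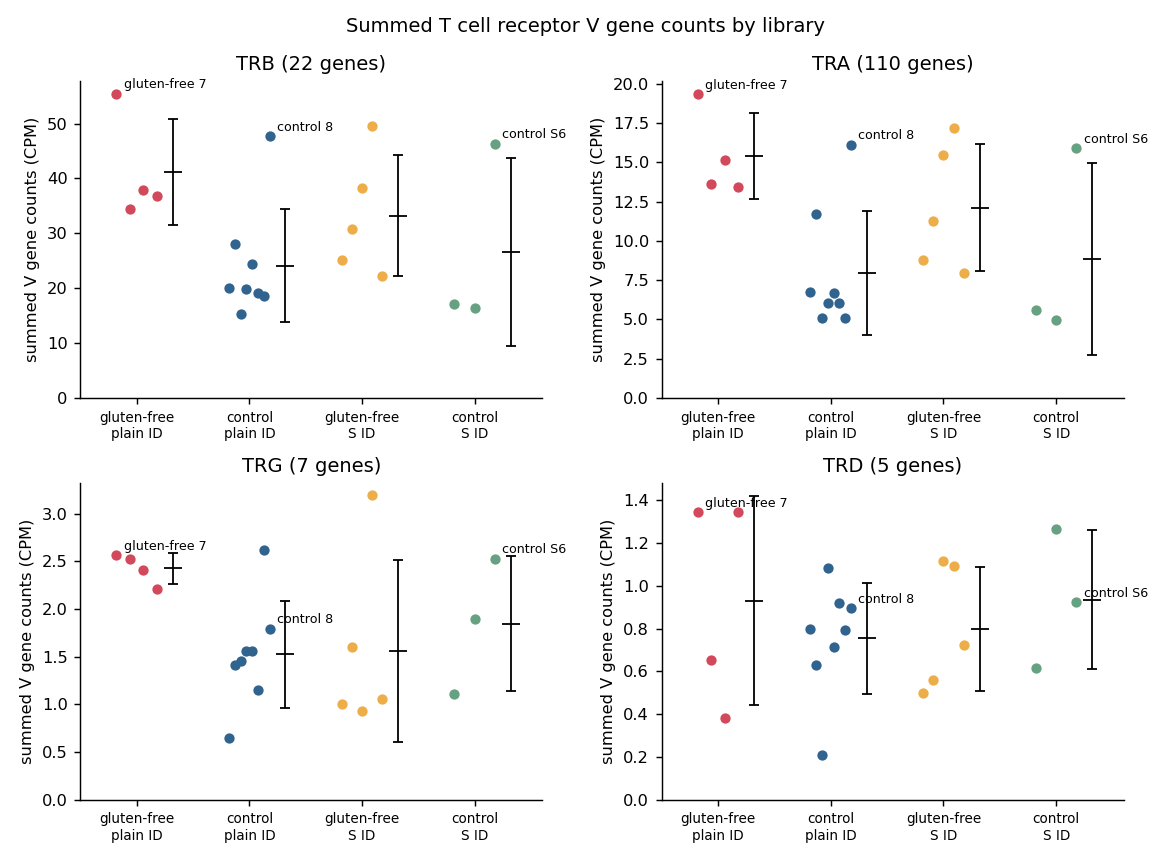
Summed CPM of the V genes of each locus, 1 point a library, with the mean ± SD beside each group; gluten-free 7, control 8 and control S6 are named. Within the plain IDs control 8 lies among the gluten-free libraries for TRB and TRA, and within the S IDs control S6 lies among the gluten-free libraries and far above the other 2 control libraries for the same loci.

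Counted per constant gene, the V genes did not separate the diets. TRB V genes had 15.9 ± 3.89 counts per 100 counts of Trbc1 and Trbc2 in gluten-free plain libraries, 15.1 ± 4.89 in control plain, 15.0 ± 3.09 in gluten-free S and 14.8 ± 1.23 in control S libraries (SD, n = 4, 8, 5 and 3). Gluten-free 7, with 21.7, and control 8, with 26.6, lay above the other 18 libraries, which spanned 11.1 to 18.8. TRA V genes had 50.3 ± 5.09 counts per 100 counts of Trac in gluten-free plain and 46.9 ± 7.10 in control plain libraries, and 47.1 ± 2.39 in gluten-free S and 48.0 ± 6.80 in control S libraries. All these ranges overlapped.

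The other genes of the receptor complex and of T cells rose with the V genes in the plain IDs. The 7 listed TCR constant genes, of 8 C genes in the table, rose: Trac by 0.85 ± 0.21, Trbc1 by 0.69 ± 0.11, Trbc2 by 0.72 ± 0.10, Trdc by 0.47 ± 0.17, Tcrg-C1 by 0.81 ± 0.26, Tcrg-C2 by 0.70 ± 0.23 and Tcrg-C4 by 0.59 ± 0.22 (log2 fold changes ± SE, each past an adjusted p of 0.05 by edgeR). All 4 genes of the CD3 signalling complex rose, Cd3d by 0.65, Cd3e by 0.88, Cd3g by 0.65 and Cd247 by 0.76 on the log2 scale. So did the coreceptor genes Cd4, by 0.55, Cd8a, by 0.70, and Cd8b1, by 0.70. Of 10 further T cell genes 10 rose, with a median of 0.73. Of the 8 tested genes of a list for V(D)J recombination and the pre-T cell receptor 4 rose, against 18.5% of all genes. That list also holds Cd1d1, which is not a recombination gene. The 4 included the recombinase genes Rag1 (1.57 ± 0.41) and Rag2 (1.81 ± 0.61) and the terminal transferase gene Dntt (1.52 ± 0.31). These genes were listed apart from the T cell genes, and which spleen cells held their RNA was not tested. Ptcra, the pre-T cell receptor alpha chain gene, had 16 counts in all and was not tested. Of the listed genes of gamma-delta and innate-like T cells 2 of 6 rose, against 18.5% of all genes. This list holds abundant genes such as Blk (38448 counts) and Maf (18694 counts), and which cells held their RNA was not tested.

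Markers of other cell types moved in the same comparison. In the plain IDs 10 of 10 erythroid genes fell, with a median log2 difference of -1.34, and their summed level lay between 37183 and 73926 CPM in gluten-free and between 53179 and 127576 CPM in control libraries. Of 8 neutrophil genes 8 rose (median 1.71), with summed levels of 2856 to 7565 CPM in gluten-free and 700 to 2181 CPM in control libraries. Of 6 B cell genes 1 rose (median 0.43), against 18.5% of all genes. Of 6 NK and 6 macrophage genes 0 and 0 were called (medians 0.01 and 0.06), against 41.4% of all genes in either direction. The libraries with the most V RNA were those with the least erythroid RNA in their group: 37183 CPM in gluten-free 7, 53179 CPM in control 8, 65139 CPM in gluten-free S6 and 62494 CPM in control S6. No gene of these lists was at 0 in all 20 libraries. When the fit held the mean erythroid level, 0 of 26 V genes were called, against 5.43% of all genes, and their median estimate was -0.77 (all genes -0.09), with 8 V genes at an unadjusted p under 0.05. When it held the mean CD3 level, 0 of 26 were called, against 2.25% of all genes, and the median was -0.43 (all genes -0.10), with 6 V genes at an unadjusted p under 0.05. Calls were thus few over all genes in both fits, not among the V genes alone. In the plain IDs the summed CD3 level was 212 to 241 CPM in gluten-free and 108 to 179 CPM in control libraries. These ranges do not overlap, so a fit that holds the CD3 level can hardly tell diet from CD3 level. The part of these cell types in the diet difference of the V genes was not tested.

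Usage, the share of a gene in the V level of its locus (per length where given in percent), tells which V genes are transcribed apart from how much V RNA a library holds. In a fit in which each V gene was scaled to the summed V counts of its locus, 1 of 26 genes was called in the plain IDs, against 41.4% of all genes, which keep their usual scaling in that fit. The called gene was Trav7-4, lower in gluten-free by 1.65 ± 0.56 on the log2 scale (SE, edgeR adjusted p = 0.0259, log2 fold change -1.65). The 26 estimates had a median of 0.03, with 14 above and 12 below 0, and the 16 TRB genes lay between -0.33 and 0.26. So the genes that rose in level, such as Trbv13-2 (0.08 ± 0.16 in usage) and Trbv16 (0.14 ± 0.19), had intervals in usage of -0.25 to 0.41 and -0.26 to 0.55 (95%), which leave room for a change in share of either sign.

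**Figure D5:**
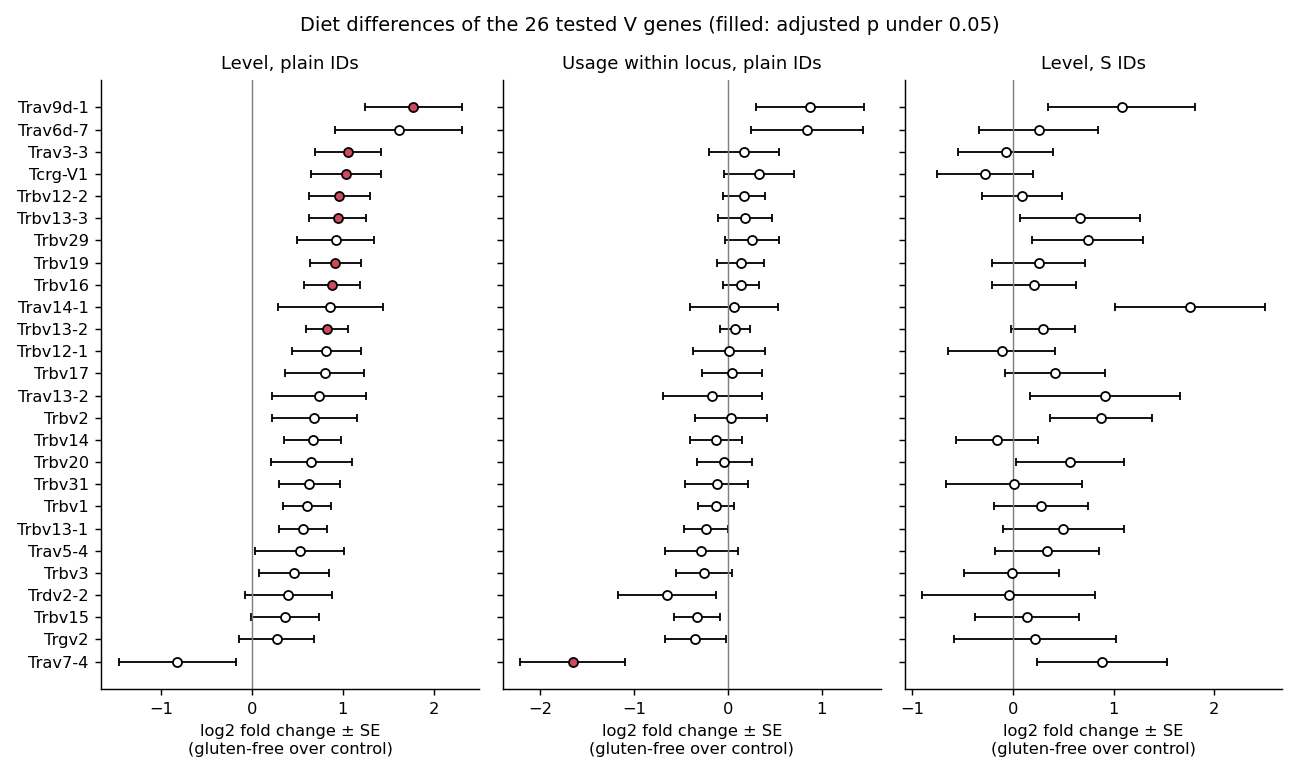
Log2 fold changes ± SE of gluten-free over control for the 26 tested V genes, as a level in the plain IDs (left), as usage within the locus in the plain IDs (middle) and as a level in the S IDs (right), by edgeR; filled points passed an adjusted p of 0.05. On the left 25 of 26 genes lie above 0 and 8 are filled, in the middle 14 lie above 0 and 1, Trav7-4, is filled, and on the right 20 lie above 0 and none is filled.

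Trav7-4 had 0.378, 0.174, 0.115 and 0.215 CPM in gluten-free 7 to 10, against 0, 0.303 and 0.956 CPM as lowest, median and highest in the control libraries. The groups overlapped. As a share of the TRA and TRD V genes per length it held 1.11 ± 0.384% in gluten-free plain and 3.48 ± 2.26% in control plain libraries (SD, n = 4 and 8), and it held 4.53 ± 4.08% in gluten-free S and 2.94 ± 0.456% in control S libraries (n = 5 and 3), the other way round. Its near-copy Trav7d-4 differs at 2 of 341 coding bases. One lies in the leader exon, and the other is in capitals in the stretches at chr14:53461578-53461627 and chr14:52770232-52770281 (plus strand), shown because the call rests on telling the pair apart:
Trav7-4: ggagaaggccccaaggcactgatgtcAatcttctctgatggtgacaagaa
Trav7d-4: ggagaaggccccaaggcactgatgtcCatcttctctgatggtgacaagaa

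Summed, the pair had 0.484 ± 0.185 CPM in gluten-free plain and 0.555 ± 0.382 CPM in control plain libraries, and with counts summed by family the usage of Trav7 was not called (log2 fold change -0.71, adjusted p = 0.0957 by edgeR). The call on Trav7-4 was also lost without control 1, without gluten-free 8 or without gluten-free 9.

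In percentage points, the largest differences in share within the plain IDs were in the gamma locus. There 7 genes divide the whole, so single shares are large and a rise of 1 gene goes with falls of others. These shares rest on 41 to 63 TRG V counts per gluten-free plain library and 13 to 33 per control plain library. Tcrg-V1 held 52.3 ± 3.13% of TRG V usage in gluten-free and 42.9 ± 22% in control libraries, and Trgv2 held 30.4 ± 6.35% and 39.8 ± 15.4% (SD, n = 4 and 8). Tcrg-V6 held 0.779 ± 0.900% and 3.47 ± 5.91%, from 12 counts in all. These differences of 9.43, -9.39 and -2.70 percentage points are smaller than the SD of the control libraries, and in the usage fit Tcrg-V1 and Trgv2 had log2 differences of 0.33 ± 0.37 and -0.34 ± 0.32 (SE, edgeR adjusted p = 0.494 and 0.404). In the TRA and TRD locus, Trav6-6 held 2.82 ± 2.56% in gluten-free and 0.348 ± 0.552% in control, Trav6d-7 4.45 ± 1.88% and 2.22 ± 2.17%, and Trdv2-2 3.05 ± 1.74% and 5.43 ± 3.51%. Trav6-6 is identical in coding sequence to Trav6d-6, which had no count, and did not pass the filter. In TRB, Trbv13-2 held 20.3 ± 1.93% and 19.3 ± 3.18%.

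The number of V genes in use was compared between the groups in 2 ways. The effective number of TRB genes, the exponential of the Shannon entropy of their counts, was 14.3 ± 0.391 in gluten-free plain and 13.9 ± 1.08 in control plain libraries, and 14 ± 0.386 in gluten-free S and 13.5 ± 1.17 in control S libraries (SD, n = 4, 8, 5 and 3). At the TRA and TRD locus the effective number was 42.0 ± 1.96 in gluten-free plain and 31.8 ± 7.79 in control plain libraries, and 38.1 ± 4.63 in gluten-free S and 34.0 ± 7.82 in control S libraries, at unequal counts and with overlapping ranges. There, more genes were counted in gluten-free plain (64.0 ± 2.94) than in control plain libraries (42.6 ± 11.1), but at a common total of 74 counts the expected numbers were 36.3 ± 0.619 and 34.0 ± 3.93. In S libraries these expected numbers were 35.6 ± 2.00 in gluten-free and 35.3 ± 2.31 in control. At a common total the groups overlapped in both ID forms. Across the 22 TRB genes, log2 usage correlated between libraries with r from 0.785 to 0.984 over 190 pairs (genes within a library, not independent replicates). The median r was 0.940 for 47 pairs of the same diet and ID form, and 0.940 for 47 pairs of the same ID form and different diets. Within a group, TRB counts varied 1.97 to 2.17 times as much as counting alone would give (chi-square per degree of freedom).

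Within the S IDs no V gene was called. None of the 17599 genes tested passed the threshold by edgeR (background 0%), 1 of 26 V genes (Trav14-1) and 904 genes in all had an unadjusted p under 0.05, and DESeq2 called 4 genes and no V gene. The 26 V genes had a median log2 difference of 0.27, against 0.01 for all genes, and 20 lay above 0. Trbv13-2 had 4.79, 4.75, 6.08, 9.15 and 4.44 CPM in gluten-free S1, S3, S5, S6 and S8 and 3.83, 3.54 and 6.84 CPM in control S1, S2 and S6, with a log2 difference of 0.30 ± 0.32 (SE, edgeR adjusted p = 0.983). Trbv16 had 0.21 ± 0.42. The groups of both genes overlapped. Trav9d-1 and Tcrg-V1, whose diets did not overlap in the plain IDs, did so here. Trav9d-1 had 0.278, 0.389, 0.559, 0.569 and 0.222 CPM in gluten-free S1, S3, S5, S6 and S8 and 0, 0.190 and 0.370 CPM in control S1, S2 and S6 (1.08 ± 0.73, SE, edgeR adjusted p = 0.943). Tcrg-V1 had 0.445, 0.519, 0.621, 1.27 and 0.444 CPM in those gluten-free libraries and 0.618, 0.632 and 1.17 CPM in control (-0.28 ± 0.47, SE, edgeR adjusted p = 0.988). Of the TCR constant, CD3 and coreceptor genes 0 were called in the S IDs. Trav14-1 had the largest estimate, 1.76 ± 0.75 (SE, edgeR adjusted p = 0.916), from 0.278, 1.21, 1.37, 0.875 and 0.222 CPM in gluten-free S and 0.124, 0.126 and 0.432 CPM in control S libraries.

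In the S IDs the size of the diet difference moved with 1 control library. The TRB V sum was 25.1, 30.9, 38.2, 49.6 and 22.3 CPM in gluten-free S1, S3, S5, S6 and S8, against 17.1, 16.4 and 46.3 CPM in control S1, S2 and S6. All 5 gluten-free libraries thus lay above control S1 and S2, and 4 of 5 lay below control S6. Without control S6 the median log2 difference of the 26 genes was 1.09, with 0 called, and it lay between 0.06 and 0.39 when any other library was left out (0.06 without control S2, 0.07 without control S1 and 0.13 without gluten-free S6). The T cell constant genes of control S6 summed to 397 CPM, the highest of the 20 libraries, against 143 and 130 CPM in control S1 and S2.

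Over both ID forms, with the ID form as a term, 0 of 26 V genes were called, and 0% of all genes. At an unadjusted p under 0.05 there were 10 V genes and 4485 genes in all, and DESeq2 called 1 V gene, Trbv13-2 (log2 fold change 0.61, adjusted p = 0.0400), against 8.87% of all genes. The median log2 difference of the V genes was 0.62, against 0.01 for all genes, with 25 of 26 above 0. Trav9d-1, at 1.57 ± 0.44, and Trbv13-2, at 0.63 ± 0.20, had the smallest adjusted p, 0.102 for each by edgeR. Leaving out control S6 gave 11 called V genes, against 21.6% of all genes, and leaving out gluten-free S8 gave 3 (Trav9d-1, Trbv13-2 and Trbv16), against 17% of all genes.

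Whether the diet difference itself differed between ID forms was tested by an interaction term. No V gene was called by edgeR, against 25.7% of all genes (15.3% higher, 10.3% lower), and 1 V gene and 6789 genes in all had an unadjusted p under 0.05. Tcrg-V1 had the smallest adjusted p, with an interaction of -1.32 ± 0.62 (SE, adjusted p = 0.118), and it was the 1 V gene called without gluten-free S6 (-1.71, adjusted p = 0.0351), where 30.9% of all genes were. For the V genes 22 of 26 interaction estimates were below 0, with a median of -0.42, which was 0.26 without control S6, -0.20 without gluten-free 7 and -0.64 without control 8. The interval for Trbv13-2, -1.37 to 0.29, leaves room for a difference between ID forms, and that for Tcrg-V1, with an SE of 0.62, was wider. The lack of calls thus does not show that the diets acted alike in both ID forms.

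The ID forms were also compared within a diet. Among gluten-free mice, S against plain, 0 of 26 V genes were called, against 34.5% of all genes (20.9% higher, 13.6% lower), and 2 V genes and 7912 genes in all had an unadjusted p under 0.05. These were Trav3-3, with 0.549 ± 0.168 CPM in S and 1.08 ± 0.367 CPM in plain libraries (log2 fold change -0.95 ± 0.40, adjusted p = 0.0680 by edgeR), and Trav7-4, with 0.621 ± 0.412 CPM in S and 0.221 ± 0.113 CPM in plain libraries (1.47 ± 0.66, adjusted p = 0.0884). Among control mice, S against plain, 0 V genes were called, against 3.34% of all genes (2.14% higher, 1.2% lower), and none had an unadjusted p under 0.05, while 3112 genes in all had. The median log2 differences of the 26 V genes were -0.36 among gluten-free and 0.18 among control mice, and both moved with single libraries. The gluten-free median was -0.10 without gluten-free 7 and -0.21 without gluten-free S8, and the control median was -0.61 without control S6, 0.30 without control 8, 0.36 and 0.44 without control S1 and S2, and 0.05 to 0.10 without control 1, 3, 6 or 7. In usage within the S IDs 0 V genes were called (background 0%), with 1 V gene and 905 genes in all at an unadjusted p under 0.05.

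For comparison, the 34 pseudogenes of the V loci had 156 counts together over the 20 libraries, against 16541 on the 144 V genes, and 20 of them had none. Trav22 with 55 counts and Trbv24 with 46 held most of these. As a sum they had 0.482 ± 0.258 CPM in gluten-free plain and 0.344 ± 0.204 CPM in control plain libraries (SD, n = 4 and 8).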

How the data were processed

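The authors deposited 1 table of raw counts per gene for whole spleen RNA of 20 libraries (Illumina NovaSeq, per the labels), together with gene coordinates, lengths and biotypes. Per the submitters' processing notes, CASAVA, HISAT2 2.0.5 and featureCounts 1.5.0 were used, and the genome was mm10 (GRCm38). The annotation release, the strand setting and the handling of reads that match several genes are not given in the sources used here, so copies that share sequence, and genes that overlap on opposite strands, may not be told apart. Coordinates are those of the deposited table, and sequences come from GENCODE M21 on GRCm38, in which 144 of 144 V genes have the same coordinates. Libraries held 13626021 to 24268237 counts.

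Diets were compared within plain IDs, within S IDs and over both with the ID form as a term. Whether the diet effect differed between ID forms (an interaction term), and S against plain IDs within each diet, were tested as well. The test was edgeR 4.0.16 (quasi-likelihood, TMM scaling, R 4.3.3) on all genes that passed edgeR's default expression filter (minimum count 10), with Benjamini-Hochberg adjustment over all of them and a threshold of 0.05. For usage, the V genes carried the summed V counts of their locus as offset (TRA and TRD taken as 1 locus). CPM are counts scaled by TMM. Levels per kilobase use the deposited gene length. No sum, share, ratio or diversity value was tested. Errors are SD over libraries unless named SE. Limits for a count of 0 use 3 counts over the pooled libraries and cover counting error only.

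Genes given with values were, in each locus, the 3 of highest mean CPM (2 for TRG and TRD), all called genes, the 3 highest and 3 lowest differences in usage, and genes of known role. Trav5-4 and others in the order of TRB genes were named after their values were seen. The V genes and the marker lists were chosen with earlier results of these data known. Alternatives covered scaling, filters, DESeq2 1.42.0, limma-voom (limma 3.58.1), thresholds, covariates, V families and leaving out libraries. Some of the fits were also run on simulated counts, drawn with no difference between ID forms or in cell composition. Those runs therefore do not bear on how far the calls depend on ID form or on single libraries. No 2 libraries of a group were alike within sampling noise (chi-square per degree of freedom of 5.72 to 95.6 over 47 pairs). No label states that the libraries came from separate litters or cages.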

Additional observations from a re-analysis of the deposited data

Results flagged for a closer look

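In the groups of 4, 5 and 8 libraries, 19 of 102 sets of values had a library far from the others of its group by Dixon's 95% limit. Chance gives about 1 in 20 for continuous values, which sets of few counts are not. The 3 control S libraries, control S6 among them, were not examined in this way. The sets overlap, since single genes enter the sums, and no explanation was weighed. Control 8 was the highest of the 8 plain control libraries in Trbv13-2 (7.35 CPM, next library 4.66), Trbv16 (5.67, next 2.99), Trbv1 (4.54, next 2.99) and Trbv12-2 (2.57, next 1.47). It also led them in the TRB V sum (47.7 CPM, next 28.1), in the sum of all V genes (66.5 CPM, next 41.9) and in TRB V counts per 100 C counts (26.6, next 17.0). Gluten-free 7 was the highest of the 4 gluten-free plain libraries in the TRB V sum (55.5 CPM, next 37.8), in the sum of all V genes (78.7 CPM, next 55.8) and in TRB V counts per 100 C counts (21.7, next 14.3).

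Gluten-free S6 was the highest of its 5 libraries in Tcrg-V1 (1.27 CPM, next 0.621), Trdv1 (0.613, next 0.173) and Trav11 (0.0438 CPM from 1 count, the others at 0). Gluten-free S5 had 0.869 CPM of Trdv2-2, where the next library had 0.278. Control 7 had 0.397 CPM of Tcrg-V6 (5 counts), where the next had 0.0597 (1 count). Control 2 had 0.157 CPM of Trav6-6 (3 counts), where the next had 0.0651 (1 count). It had 0.157 CPM of Tcrg-V7 (3 counts), where the other plain control libraries had 0. Gluten-free 9 had 0.191 CPM of Tcrg-V5 (5 counts) and the other gluten-free plain libraries 0. Gluten-free 10 had 0 CPM of Trdv4, where the next lowest had 0.0383 (1 count). Flags that rest on so few counts do not show that a library stands apart from its group.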

How the results depend on the processing

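Each count of V genes is followed by the percent of all genes called in the same fit. Among plain IDs, the 8 called V genes (41.4%) became 15 with library totals as scaling (48.7%), 5 of 14 tested with a mean of at least 1 CPM (47.7%), 14 at an adjusted p under 0.1 (50.5%), 1 at an adjusted p under 0.01 (26.3%), 0 with the CD3 mean as a covariate (2.25%) and 0 with the erythroid mean as a covariate (5.43%). Leaving out 1 library gave 2 (34.4%) to 14 (49.3%). Trbv13-2 and Trav9d-1 were called whichever library was left out, and the other 6 were lost without gluten-free 7, Trbv13-3 and Trav3-3 also without gluten-free 10, Trbv16 and Trbv12-2 also without control 6, and Tcrg-V1 also without gluten-free 8, 9 or 10 or control 2, 5 or 7. Leaving out control 8 and gluten-free 7 together, chosen after seeing the data, gave 8 (44.2%), of which 6 were shared. In all, 19 of 28 alternatives stayed within 1.5 times of 8. The 28 include a repeat, since leaving out control 5 and gluten-free S1 together is, within plain IDs, the fit without control 5. Library totals shifted the median of all genes to 0.30 and upper quartile scaling to 0.13 on the log2 scale, against 0.03 with TMM, and the median of the V genes to 1.03 and 0.86. Over both ID forms the 0 called became 1 with DESeq2 (8.87%), 11 without control 8, gluten-free 7 and control S6 together (17.5%, also chosen after seeing the data), and 0 to 11 (21.6%) with 1 library left out. The interaction gave 1 with no expression filter (11.2%), 1 with the erythroid covariate (9.12%) and 0 to 1 (30.9%) with 1 library left out. S against plain IDs among gluten-free mice gave 1 with upper quartile scaling (35.9%), library totals (41.1%), no filter (16.3%), limma-voom (37.8%) or the CD3 covariate (32.7%), 2 at an adjusted p under 0.1 (43.5%), 3 with the erythroid covariate (4.11%) and 0 to 2 (40.5%) with 1 library left out. Usage in the plain IDs gave 2 with no filter (21.3%), 0 with a mean of at least 1 CPM (47.6%, Trav7-4 not tested), an adjusted p under 0.01 (26.3%), the CD3 (2.25%) or erythroid covariate (5.43%) or V families (41.4%), and 0 to 1 with 1 library left out. Except where stated, the cause was not tested. The diet within S IDs, S against plain IDs among control mice, and usage in S IDs stayed at 0 under the 23, 25 and 22 alternatives run. The 23 and the 22 include a repeat of the fit without gluten-free S1. limma-voom was not run for usage.

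With a replicate block over the 4 ID numbers that both diets share, 0 V genes were called and their median log2 fold change was 0.46. The deviations of same-numbered libraries correlated at -0.19, -0.22, 0.14 and 0.41. Among the libraries of the other diet and same ID form, 4 of 8 correlated best with their own number. No label states that same-numbered libraries are related, and these values do not decide it. Depth limits these results: 118 of 144 V genes had too few counts to test, and 20 had none.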
